A study of Mus musculus with 14 samples.

Results

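The 10 genes described here encode subunits of Polycomb repressive complexes 1 and 2 (PRC1 and PRC2). They were taken by name from a count table of 24064 genes. Ezh1, Ezh2, Eed and Suz12 encode core subunits of PRC2, Jarid2 and Phf19 accessory subunits, and Rnf2, Ring1, Bmi1 and Cbx2 subunits of PRC1. Of the 10, 9 had enough counts to be tested, and Ring1 had no count in any oocyte.

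RNA was measured by RNA-seq of single mouse oocytes, which the authors describe as ovulated, with cDNA primed from the poly(A) tail. The 4 wt/wt oocytes (wt1, wt3, wt4 and wt5) carry unmodified Kdm1a and are of strain C57BL/6J. The single f/f oocyte (C3) is flox/flox for Kdm1a without Cre, in a mixed B6;129 strain. The 5 mutants (named D1 to D4 and D7, and listed in that order below) come from the same mixed strain and are labelled mko/mko. In them Cre under the Zp3 promoter, which is active in the growing oocyte, deletes the first exon of Kdm1a, the gene of the lysine demethylase KDM1A (LSD1). The labels give neither the age of the females nor which oocytes came from the same female, so p-values here measure only the spread between oocytes. Control oocytes means the wt/wt and f/f oocytes together. The wt/wt oocytes differ from the others in strain as well as in the floxed allele, and f/f is a single oocyte, so strain and genotype cannot be told apart among the wt/wt and mutant oocytes.

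Polycomb proteins keep developmental genes silent. PRC2 methylates lysine 27 of histone H3 through EZH2 or its paralog EZH1, and needs EED, which binds the mark, and SUZ12, which holds the complex together. PRC1 carries one of the ubiquitin ligases RING1 and RNF2 (RING1B), which modify histone H2A, together with one member of the PCGF family such as BMI1, and its canonical form reads the PRC2 mark through a CBX protein such as CBX2. In the mouse, growing oocytes build up Polycomb transcripts and proteins that are passed on to the embryo, and methylated H3 lysine 27 laid down in the oocyte silences a small set of maternal alleles after fertilization.

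The f/f oocyte held 6928548 counts in total, the wt/wt oocytes 1375187 to 1892015 and the mutants 2016701 to 6926076. Levels are CPM values (counts scaled to a common library size) over library sizes adjusted by TMM, a scaling that assumes most genes to be alike. Mutants had TMM factors of 0.779 to 0.952, between the 0.651 of C3 and the 1.30 to 1.37 of wt/wt oocytes. In this unit 3 counts, the limit a count of 0 allows, stood for 0.456 to 1.83 CPM. The intervals and limits given from counts cover counting error only. Each level is a share of the counted RNA of an oocyte. A smaller amount of a transcript and a larger amount of the other transcripts therefore cannot be told apart. The length of the poly(A) tail, from which the cDNA was primed, was not measured. Kdm1a had 27 to 669 counts in control oocytes and 0 to 10 in mutants (log2 fold change -5.02, standard error (SE) 0.86, adjusted p = 0.0011, edgeR, with -4.05 without C3 and -5.97 without D7). Of 10 oocyte markers fixed as a list, all were counted in both groups, and 6 were called higher in mutants, as were 14.7% of all genes. Zp2 rose the most strongly (log2 fold change 4.75, and 5.39 without wt5 and 4.15 without D1). Of the 6, Gdf9 lost its call in 6 and Zp1 in 4 of the 10 fits that leave out 1 oocyte, and Zp1 was at 0.93 without D1. Of 12 markers of cumulus and granulosa cells, 7 were at 0 in every oocyte, among them Foxl2, Amh, Fshr and Inha. The summed level of those 12 was 20.6 to 79.0 CPM in controls and 83.5 to 156 CPM in mutants, and its one called gene was Cyp19a1 (log2 fold change 1.48), which lost its call without wt3 (1.34, adjusted p = 0.0618, edgeR). Cyp19a1 alone gave 79.2 to 147 CPM of that sum in mutants, while the other tested markers, Nr5a2 and Kitl, had log2 fold changes of -1.60 and -0.34 and were not called, and Has2 had at most 1 count in any mutant. The part of these markers in the differences below was not tested.

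A gene was called when the adjusted p was under 0.05 and the absolute log2 fold change at least 1. Of the 9 members tested, 2 were called, Bmi1 and Eed, and both fell in mutant oocytes. Over all 9198 genes tested, 25.9% were called, 11.2% lower and 14.7% higher in mutants. The share of members called, 2 of 9, was thus close to that of all genes, while the log2 fold change was below 0 for each of the 9, against 45.2% of all genes. Their median log2 fold change was -0.77, against 0.17 for all genes, and without C3 it was -0.43, against 0.28. The sign of Cbx2 and of Phf19 turned in some of the other settings, given with those genes. All mutants lay below all controls for 2 of the 9, Bmi1 and Eed, and for 8.09% of all genes.

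**Figure D1:**
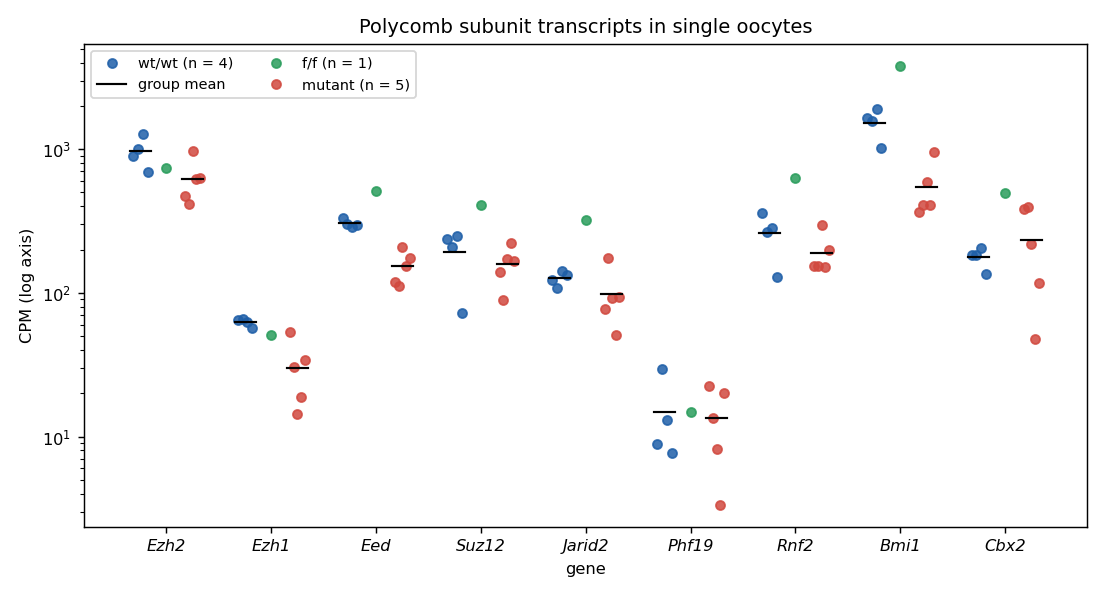
Each point is the CPM (log axis) of 1 gene in 1 oocyte, for 4 wt/wt, 1 f/f and 5 mutant oocytes, and short lines are group means. For Bmi1 and Eed all mutant points lie below all control points, while for the other 7 genes the groups overlap. The f/f point is the highest of all 10 oocytes for Eed, Suz12, Jarid2, Rnf2, Bmi1 and Cbx2.

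Among the members in the PRC2 core, Ezh2 was the most counted. The promoters of Ezh2, which was not called, and of the called genes Bmi1 and Eed are shown to compare their start regions. They are RefSeq sequences of assembly GRCm38.p6, from 250 bases before the start to 50 after it, read 5′ to 3′ on the strand of the gene. Bmi1 lies at chr2:18676768-18677067 on the plus strand, Eed at chr7:89980927-89981226 on the minus strand and Ezh2 at chr6:47594981-47595280 on the minus strand. Capitals mark 3 motifs searched on both strands. The GC box was searched as GGGCGG. The CCAAT box was searched as the letters of its name. The E-box was searched as CACGTG. Neighbouring matches may overlap.
Bmi1: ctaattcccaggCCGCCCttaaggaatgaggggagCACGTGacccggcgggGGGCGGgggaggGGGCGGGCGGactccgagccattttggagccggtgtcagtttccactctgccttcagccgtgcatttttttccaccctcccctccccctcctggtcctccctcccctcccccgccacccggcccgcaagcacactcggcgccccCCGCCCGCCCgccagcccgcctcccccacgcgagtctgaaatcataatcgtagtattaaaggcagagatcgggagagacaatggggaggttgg
Eed: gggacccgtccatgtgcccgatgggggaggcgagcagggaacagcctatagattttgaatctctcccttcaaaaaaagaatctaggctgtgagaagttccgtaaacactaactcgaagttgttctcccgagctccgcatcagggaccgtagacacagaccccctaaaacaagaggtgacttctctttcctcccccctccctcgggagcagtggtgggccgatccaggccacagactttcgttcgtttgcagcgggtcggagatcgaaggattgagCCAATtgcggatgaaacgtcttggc
Ezh2: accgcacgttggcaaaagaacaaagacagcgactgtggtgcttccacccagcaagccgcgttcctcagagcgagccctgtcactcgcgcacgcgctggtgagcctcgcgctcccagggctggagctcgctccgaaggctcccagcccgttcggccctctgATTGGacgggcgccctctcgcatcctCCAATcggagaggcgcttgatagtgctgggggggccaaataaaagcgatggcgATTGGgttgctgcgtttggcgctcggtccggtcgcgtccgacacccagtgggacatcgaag

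The Bmi1 sequence held 6 GC box matches and 1 E-box, the Eed sequence 1 CCAAT box and the Ezh2 sequence 3 CCAAT boxes. Among 32851 RefSeq promoters of this length, 35.7% held a GC box, 37.4% a CCAAT box and 7.15% an E-box. Bmi1 had 23 CpG dinucleotides and Ezh2 had 31, whereas Eed had 17 (median of all promoters, 7). The GC content was 66.3% for Bmi1, 54.7% for Eed and 64.3% for Ezh2, against a median of 52.7%. The called genes shared no motif of the 3. Entries were found for 9 of the 10 genes, and Cbx2 had none. Eed had the fewest CpG of the member promoters, whose highest was 41 for Suz12. A match of letters describes the sequence and is not evidence of binding.

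Bmi1 (PCGF4), the PCGF subunit of canonical PRC1, lies on chromosome 2 from 18677018 to 18686629 on the plus strand of GRCm38 (mm10). Its level was 1657, 1562, 1892 and 1027 CPM in wt1, wt3, wt4 and wt5 and 3799.8 CPM in the f/f oocyte. In the mutants, D1 to D4 and then D7, it was 366, 408, 589, 411 and 961 CPM. C3 stood highest, wt5 was the lowest control and D7 was the highest mutant, just under wt5. The mean was 1534.5 ± 365 CPM (SD, n = 4) in wt/wt and 547 ± 247 CPM (SD, n = 5) in the mutants. Against all controls the log2 fold change was -1.86 (SE 0.42, 95% interval -2.75 to -0.98, adjusted p = 0.00531, edgeR). Against the wt/wt oocytes alone it was -1.48 (SE 0.33, adjusted p = 0.0036), so that the call did not rest on C3. In that comparison Bmi1 was the 1 member called of 9, where 31.5% of all genes were called. Against C3 alone it was -2.77 (adjusted p = 0.0883), in a fit that assumes the lone control to vary like the mutants and that called 0.034% of all genes, so the lack of a call there says little about Bmi1.

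Eed, the PRC2 subunit that binds methylated lysine 27, lies on chromosome 7 from 89954654 to 89980983 on the minus strand. Its level was 334, 302, 285 and 297 CPM in the wt/wt oocytes and 513 CPM in C3. The mutants had 119, 111, 208, 154 and 174 CPM. The wt/wt oocytes lay close together, and every mutant was below the lowest of them. Eed fell by 1.18 on the log2 scale (SE 0.33, adjusted p = 0.0157, edgeR), a 2.26-fold lower level. Without C3 the log2 fold change was -0.99 (SE 0.30, adjusted p = 0.0189), short of the fold threshold though not of the p threshold, so the call rested on that oocyte. The gene overlaps E230029C05Rik on the other strand and Gm45120 on its own, and whether the counting used the strand was not stated.

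Ezh2, the main methyltransferase of PRC2, lies on chromosome 6 from 47530139 to 47595341 on the minus strand. Its level was 893, 1009, 1280.3 and 696 CPM in wt1, wt3, wt4 and wt5 and 744 CPM in C3. The mutants had 469, 415, 970, 618 and 628 CPM. D3 lay within the control range and the other 4 mutants below it. Ezh2 had a log2 fold change of -0.58 (SE 0.34, 95% interval -1.29 to 0.14, adjusted p = 0.217, edgeR), and the gene was not called. Unlike Bmi1 and Eed, Ezh2 was not at its highest in C3, which ranked 5th of the 10 oocytes. The genes whose log2 CPM followed that of Ezh2 most closely over the 10 oocytes were Atp6v1h (Pearson r = 0.955), Fam172a (r = 0.948) and Klhdc2 (r = 0.940). These values share the same libraries and scaling, and all 3 had a log2 fold change below 0 (-0.43, -0.63 and -0.39).

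Ezh1, the paralog of Ezh2 with weaker methyltransferase activity, lies on chromosome 11 from 101191115 to 101226463 on the minus strand. Its level was 64.7, 66.0, 62.6 and 56.5 CPM in the wt/wt oocytes and 50.8 CPM in C3. The mutants had 53.2, 30.5, 14.2, 18.9 and 33.9 CPM. All 5 mutants were below every wt/wt oocyte, but D1 was above C3. Ezh1 had a log2 fold change of -1.003 (SE 0.38, 95% interval -1.81 to -0.19) with an adjusted p of 0.0621 by edgeR, so Ezh1 was not called. Without D1 it was called (log2 fold change -1.30, adjusted p = 0.0314, edgeR). The mutants spanned 3.74-fold from lowest to highest, and the controls 1.30-fold.

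Suz12, the scaffold of PRC2, had 238, 209, 249 and 72.2 CPM in the wt/wt oocytes and 406 CPM in C3. The mutants had 140, 89.6, 172, 223 and 166 CPM. All 5 mutants lay between wt5, the lowest oocyte of all, and wt4. For Suz12 the log2 fold change was -0.57 (SE 0.41, 95% interval -1.43 to 0.29, adjusted p = 0.313, edgeR), and -0.27 against the wt/wt oocytes alone. Between the 2 libraries that C3, D3, D4 and D7 each have, Suz12 differed by 0.68 to 1.10 on the log2 scale, the most of the members in D3, D4 and D7 and less than Jarid2 (0.83) in C3. The gene lies on chromosome 11 from 79993106 to 80034123 on the plus strand.

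Of the 4 members in the PRC2 core, 1 was therefore called, a share like the 25.9% of all genes. The core genes Rbbp4 and Rbbp7, which are not members and are given below, had log2 fold changes above 0 (0.99 and 0.80). Within an oocyte the ratio of Ezh1 to Ezh2 needs no scaling between oocytes. There were 7.24, 6.54, 4.89 and 8.12 Ezh1 counts per 100 Ezh2 counts in wt1, wt3, wt4 and wt5 and 6.83 in C3. The mutants had 11.3, 7.33, 1.47, 3.05 and 5.40. The mutants spread to both sides of the controls, with D1 the highest and D3 the lowest of all. The log2 ratio was -3.91 ± 0.27 (SD, n = 5) in controls and -4.44 ± 1.14 (SD, n = 5) in mutants, a difference of -0.53. That difference did not pass an exact two-sided permutation test (p = 0.397, adjusted over 2 ratios 0.397, smallest p possible 0.00794). Counts were not divided by length in this ratio, so only its change between oocytes can be read.

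Jarid2 recruits PRC2 to chromatin as a subunit of the form called PRC2.2, and Phf19 does so for PRC2.1. Jarid2 had 124, 108, 142 and 134 CPM in the wt/wt oocytes and 321 CPM in C3. The mutants had 77.3, 174, 91.5, 51.3 and 93.7 CPM. D2 was above every wt/wt oocyte and the other 4 mutants were below them all. Its log2 fold change was -0.77 (SE 0.40, 95% interval -1.62 to 0.09, adjusted p = 0.169, edgeR), and -0.35 against the wt/wt oocytes alone.

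Phf19 was the least counted member with any count. It had 8.84, 29.3, 13.1 and 7.63 CPM in the wt/wt oocytes and 14.9 CPM in C3, from 16 to 68 counts each. The mutants had 22.5, 13.4, 8.19, 3.35 and 19.9 CPM. The groups overlapped over nearly their whole range. The log2 fold change of -0.15 (SE 0.55, 95% interval -1.31 to 1.01, adjusted p = 0.86, edgeR) had an interval that reached past the threshold on both sides, and its sign turned when wt3, D3 or D4 was left out. The within-oocyte log2 ratio of Phf19 to Jarid2 was -3.52 ± 0.99 (SD, n = 5) in controls and -3.004 ± 0.95 (SD, n = 5) in mutants. The exact two-sided permutation test gave p = 0.397 (adjusted over the 2 ratios 0.397). Jarid2 lies on chromosome 13 from 44729474 to 44921643 on the plus strand, and Phf19 on chromosome 2 from 34893757 to 34914026 on the minus strand.

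**Figure D2:**
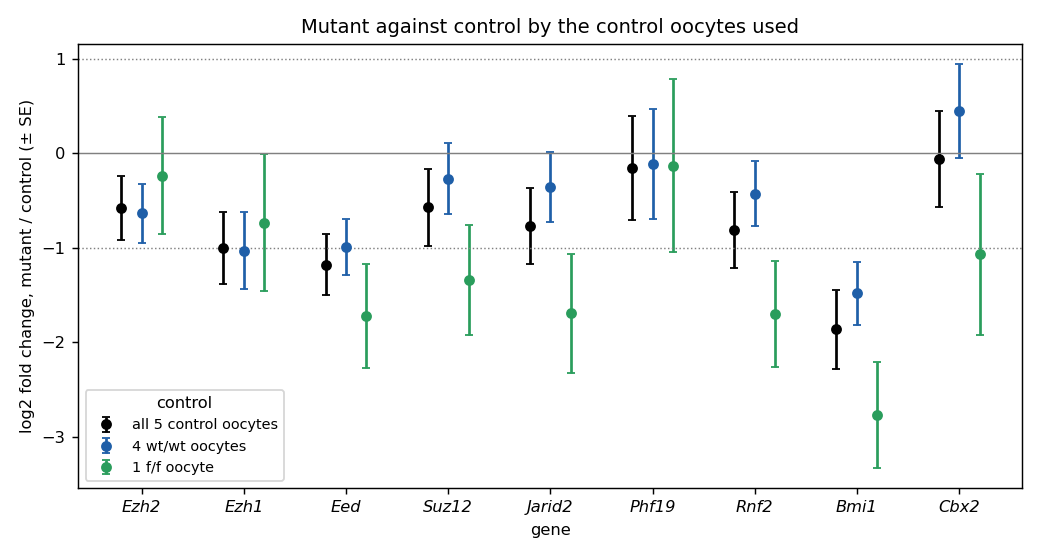
Points are log2 fold changes of mutant against control oocytes with their SE, from fits with all 5 controls, the 4 wt/wt oocytes or the 1 f/f oocyte as control, and dotted lines mark the threshold of 1 in each direction. Bmi1 is at -1.86, -1.48 and -2.77 in the 3 fits, and Cbx2 is at -0.06, 0.45 and -1.07.

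Of the 2 ubiquitin ligases of PRC1, Rnf2 was counted and Ring1 was not. Rnf2 had 361, 265, 285 and 129 CPM in the wt/wt oocytes and 631 CPM in C3. The mutants had 155, 153, 294, 151 and 199 CPM. No mutant was below wt5, which was the lowest oocyte. For Rnf2 the log2 fold change was -0.81 (SE 0.40, 95% interval -1.65 to 0.03, adjusted p = 0.142, edgeR), and -0.43 against the wt/wt oocytes alone. Rnf2 lies on chromosome 1 from 151458004 to 151500955 on the minus strand, where it overlaps the protein-coding gene Trmt1l on the other strand.

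Ring1 had 0 counts in each of the 10 oocytes, out of 30243712 counts in all, which allows a level of up to 0.456 CPM in D4, the deepest sample by adjusted library size, and 1.83 CPM in D2. Rnf2 in the same oocytes was at 129 CPM or more. Of all genes listed, 35.9% were at 0 everywhere. The longest coding transcript of Ring1 has a GC content of 60.7%, against 39.5% for Rnf2 a median of 48.7% over the genes tested and one of 48.2% over the genes at 0. Whether GC content had a part in the count of 0 was not tested. Ring1 lies on chromosome 17 from 34020792 to 34024680 on the minus strand, with no other gene annotated across it. The planned ratio of Ring1 to Rnf2 was not formed.

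Cbx2, the chromodomain subunit of canonical PRC1, spread the most among mutants. It had 182, 183, 207 and 136 CPM in the wt/wt oocytes and 497 CPM in C3. The mutants, in the same order, had 384, 393, 218, 48.1 and 117 CPM. D1, D2 and D3 were above every wt/wt oocyte, and D4 and D7 were below them all. The highest mutant was 8.18 times the lowest, the widest span of the 9 members. In D4, the lowest, the 2 libraries gave 44.3 and 46.8 CPM over their total counts, and in D7 92.3 and 125 CPM. The low level was thus seen in both libraries of each. Those of D3 lay further apart, at 122 and 215 CPM, a difference of 0.82 on the log2 scale. As a group the mutants had a log2 fold change of -0.06 (SE 0.51, 95% interval -1.13 to 1.02, adjusted p = 0.944, edgeR), and 0.45 against the wt/wt oocytes alone (adjusted p = 0.51). The gene lies on chromosome 11 from 119022962 to 119031270 on the plus strand.

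Between the 2 libraries of an oocyte, the 9 counted members differed by a median of 0.41 on the log2 scale (36 pairs of values over C3, D3, D4 and D7). Bmi1 differed by 0.09 to 0.39 and Ezh2 by 0.30 to 0.43. The descriptions in the labels number these libraries as separate oocytes. They were summed here because their titles share an oocyte name, so the number of oocytes in each group depends on this choice. With every library as its own sample, 4 of the 9 were called, Ezh1 and Jarid2 besides Bmi1 and Eed, where 31.4% of all genes were called.

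Scaling changed the number of members called. With total counts in place of TMM, 6 of 9 members were called lower, namely Ezh1, Ezh2, Eed, Jarid2, Rnf2 and Bmi1, where 28.6% of all genes were called. With this scaling the median over all genes moved from 0.17 to -0.23 on the log2 fold change scale, and that of the members from -0.77 to -1.08. The log2 fold change was below 0 for all 9 members with TMM, DESeq2 size factors, upper-quartile scaling and total counts.

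To compare genes with each other, CPM was divided by the exon length of each gene. Per kb, Bmi1 was the most abundant member in wt/wt oocytes, with 386 ± 91.9 CPM per kb (SD, n = 4), followed by Ezh2 with 145 ± 36.5 and Eed with 79.6 ± 5.48. With whole exon lengths, neither Bmi1 and Ezh2 nor Ezh2 and Eed overlapped among these oocytes. Rnf2 (62.9 ± 23.4), Cbx2 (41.6 ± 6.98) and Suz12 (38.8 ± 16.5) came next, and the ranges from Eed down to Jarid2 overlapped from each gene to the next. Jarid2 (13.1 ± 1.53), Ezh1 (8.39 ± 0.56) and Phf19 (2.92 ± 1.99) closed the order without overlap. Bmi1 per kb exceeded 99.1% of the tested genes with a known length, and Phf19 exceeded 53.0%.

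With whole exon lengths Bmi1 also led in mutant oocytes, with 138 ± 62.1 CPM per kb (SD, n = 5), but its range overlapped that of Ezh2 (92.9 ± 32.4). On this scale Bmi1 was above Ezh2 in 5 of 5 mutants. Eed moved from the third to the fifth place, behind Cbx2 (54.5 ± 36.5) and Rnf2 (46.2 ± 14.9), with 40.0 ± 10.4. In C3 the order began with Bmi1 (956 CPM per kb), Rnf2 (153) and Eed (134), and Ezh2 (111) came after Cbx2 (117). Because cDNA from this method covers mainly the last 3 kb of a transcript, length was also limited to 3 kb, and parts of these orders did not hold. In mutants Ezh2 then led (207 CPM per kb) ahead of Bmi1 (182), and Eed (51.1) came just after Suz12 (52.6). In C3 Ezh2 (248) then came next after Bmi1, ahead of Rnf2 (210), Eed (171) and Cbx2 (166). In wt/wt oocytes Bmi1, Ezh2, Eed and Rnf2 kept their places, and Suz12 (64.0) and Cbx2 (59.1) changed theirs. The wt/wt ranges of Bmi1 (342 to 631 CPM per kb) and Ezh2 (232 to 427) then overlapped.

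**Figure D3:**
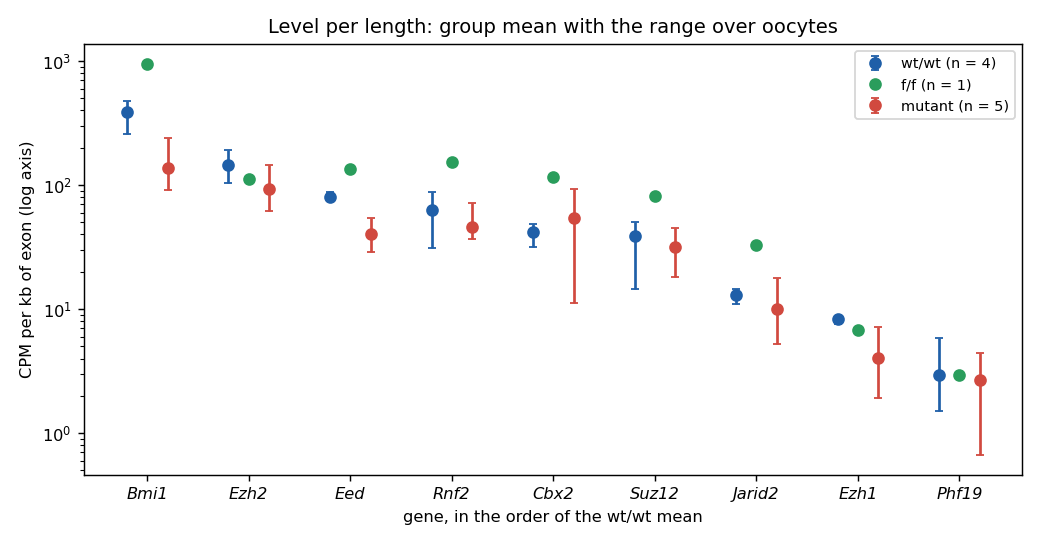
Points are group means of CPM per kb of exon (log axis), and bars run from the lowest to the highest oocyte for wt/wt (n = 4) and mutant (n = 5), with 1 f/f oocyte as a single point. Genes are in the order of the wt/wt mean, from 386 for Bmi1 to 2.92 for Phf19, and Ring1 at 0 is not drawn.

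The f/f oocyte had more of most members than the wt/wt oocytes, although both were controls. Its level over the wt/wt mean was 2.48-fold for Bmi1, 2.80-fold for Cbx2, 2.53-fold for Jarid2, 2.43-fold for Rnf2, 2.12-fold for Suz12 and 1.68-fold for Eed. For Ezh2 and Ezh1 it was 0.767-fold and 0.814-fold, and for Phf19 1.01-fold. With 1 oocyte these ratios have no replicate check. All 5 mutants were below C3 for those 6 genes that were higher in it, and 4 of 5 for Ezh1 and Ezh2.

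Other Polycomb genes were taken as lists. Of 8 further genes of core and accessory PRC2 subunits, 6 were tested and 0 were called, at a median log2 fold change of 0.71. At an unadjusted p under 0.05 edgeR counted 1 of the 6, Rbbp4 (log2 fold change 0.99), DESeq2 called that 1 gene, and limma voom with sample weights called 4 (Rbbp4, Rbbp7, Phf1 and AU022751), each higher in mutants, where 34.5% of all genes were called. Against the wt/wt oocytes alone, edgeR called the same 4 genes, each higher in mutants, at log2 fold changes of 1.36 to 1.77 (adjusted p 0.00141 to 0.00959), where 31.5% of all genes were called, so that the absence of calls rested on C3. The histone chaperone Rbbp7 and the PRC2 inhibitor Ezhip (AU022751 in the table) were the most counted of them and were chosen for mention after their values were seen. Rbbp7 had 1043.5 to 3187 CPM in wt/wt oocytes, 12060.5 CPM in C3 and 6460.1 to 8256 CPM in mutants. AU022751 had 680.5 to 2105 CPM in wt/wt oocytes, 9477 CPM in C3 and 2673 to 6484 CPM in mutants. Both rows show mutants above the wt/wt oocytes and below C3.

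Of 27 further PRC1 genes, 21 were tested, and 2 were called lower and 4 higher, a share near that of all genes (11.2% lower and 14.7% higher). The median log2 fold change was -0.17. Scml2, a germline PRC1 partner, fell in mutants from 142 to 326 CPM in control oocytes to 32.9 to 70.1 CPM (log2 fold change -2.33, SE 0.36, adjusted p = 0.000613, edgeR). Bcor, a corepressor of the variant complex PRC1.1, had 10 to 27 counts in control oocytes and 0 to 3 in mutants (log2 fold change -4.21, SE 0.93, adjusted p = 0.00495, and -5.43 without D2). Pcgf6, the PCGF subunit of the variant complex PRC1.6, rose from 222 to 380 CPM in controls to 458 to 1726 CPM in mutants (log2 fold change 1.60, SE 0.39, adjusted p = 0.00769). Cbx7, a further CBX reader, had 0 to 3 counts in controls and 5 to 46 in mutants (log2 fold change 3.27, SE 0.80, adjusted p = 0.00826). The other called genes, beyond the naming rule and given after their values were seen, were Phc2 (log2 fold change 1.31, adjusted p = 0.0386), which lost its call when wt1, wt3, wt4, wt5, D1 or D2 was left out, and E2f6. E2f6, a DNA-binding subunit of PRC1.6, was at 0 in all controls and had 1, 1, 4, 37 and 0 counts in the 5 mutants, at least 1.33-fold higher as a group mean against 3 counts per control oocyte. Without D4 its mean did not exceed that limit. Cbx7 and E2f6 had enough counts to be tested only through the mutants, and Bcor only through the controls. Their calls were thus favoured by the filter on low counts.

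BMI1 and PCGF6 occupy the same place in alternative forms of PRC1, so their counts were set side by side in each oocyte, a comparison chosen after their values were seen and given without a test. Of the counts of the 6 Pcgf genes (Pcgf1, Pcgf2, Pcgf3, Bmi1, Pcgf5 and Pcgf6), Bmi1 made up 75.5%, 80.0%, 79.5% and 74.4% in wt1, wt3, wt4 and wt5 and 86.8% in C3. In the mutants it made up 29.0%, 41.1%, 33.0%, 18.7% and 59.1%. Pcgf6 made up 7.91% to 19.7% in controls and 37.5% to 78.5% in mutants. Bmi1 outnumbered Pcgf6 by 3.77-fold to 10.97-fold in controls, and in mutants the ratio of Bmi1 to Pcgf6 was 0.238 to 1.58. D7 was the one mutant with more Bmi1 than Pcgf6 counts. Pcgf2, the closest paralog of Bmi1, was at 0 counts in all 10 oocytes, as was Cbx8. These shares do not depend on scaling between oocytes, but the counts were not divided by length. Only their change between oocytes can be read, not which transcript was the more abundant.

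**Figure D4:**
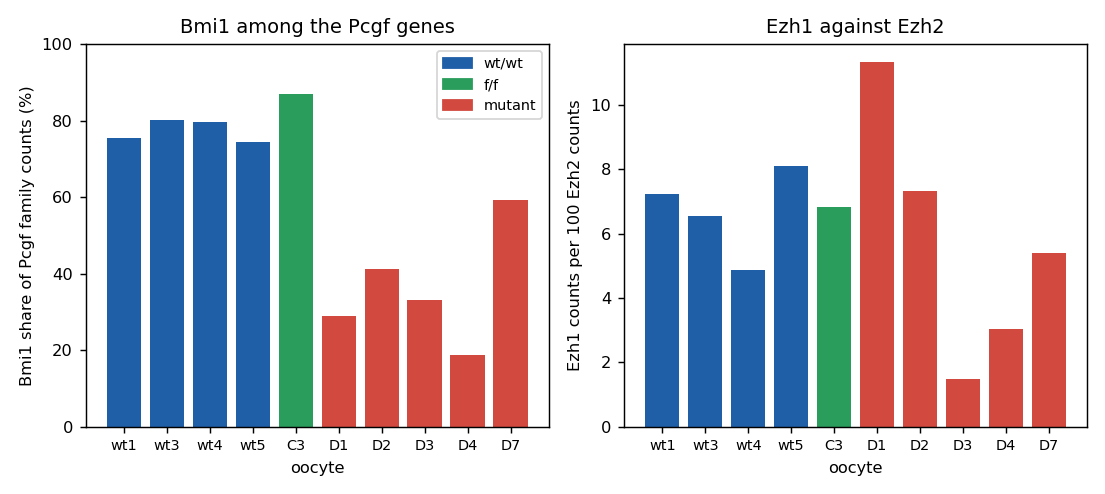
Bars give, for each of the 10 oocytes, the Bmi1 share of counts of the 6 Pcgf genes (left, percent) and the Ezh1 counts per 100 Ezh2 counts (right), colored by group. The Bmi1 share is 74.4% to 86.8% in controls and 18.7% to 59.1% in mutants, while the Ezh1 values of mutants (1.47 to 11.3) lie on both sides of the controls (4.89 to 8.12).

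Of 10 genes of the Polycomb deubiquitinase PR-DUB, which removes the PRC1 mark from histone H2A, 8 were tested, and 2 were called lower and 1 higher. Asxl2 (log2 fold change -1.56, SE 0.42, adjusted p = 0.0145, edgeR) and Asxl1 (-1.17, SE 0.37, adjusted p = 0.0283), which encode alternative cofactors of the deubiquitinase, fell without overlap between groups, though Asxl1 lost its call without wt5 (-0.88), D1 (-1.05) or D7 (-1.14). Mbd6 rose from 0 to 3 counts in controls to 1 to 33 in mutants (log2 fold change 3.73, adjusted p = 0.017, edgeR, and 4.77 without wt1). Without D1 it was not called (3.30, adjusted p = 0.0569, edgeR). Mbd6 had enough counts to be tested only through the mutants. The demethylases that remove methyl groups from lysine 27 were not called. Kdm6b had a log2 fold change of 1.09 (SE 0.47, adjusted p = 0.0936, edgeR, and 1.35 with a call without D4). Kdm6a had one of -0.68 (SE 0.77, adjusted p = 0.545, edgeR), and -0.03 without C3. Within the controls alone Kdm6a ranged from 2.69 CPM in wt5 to 192 CPM in C3. Together, 9 of 37 tested genes in these 4 lists were called, 4 lower and 5 higher, and their median log2 fold change was 0.15. That share of 24.3% was close to the 25.9% of all genes. Without C3, 14 of 37 (37.8%) were called, against 31.5% of all genes.

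**Figure D5:**
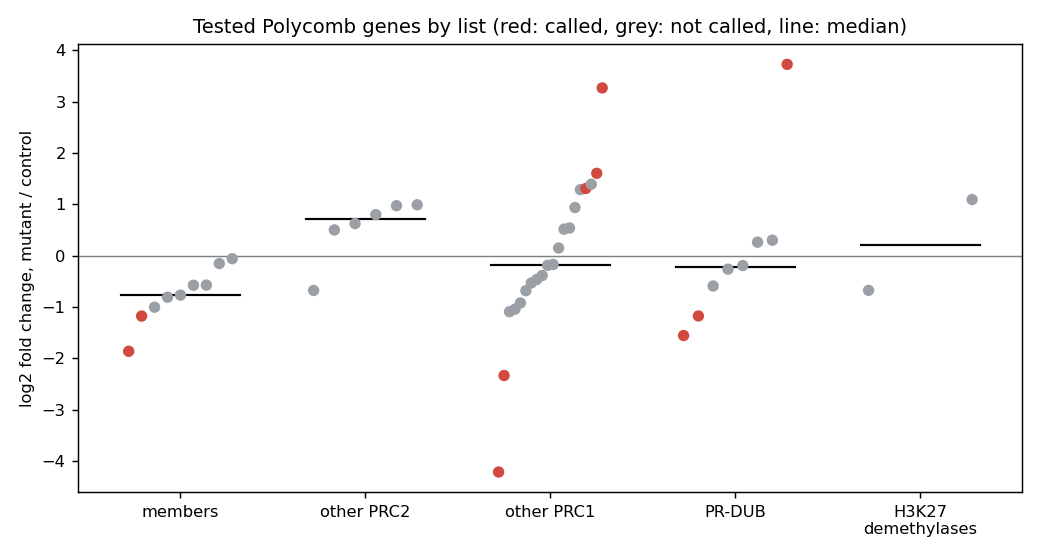
Points are log2 fold changes of mutant against control for the tested genes of 5 lists (red called, grey not called, line at the list's median), without E2f6, whose controls are all at 0. The 9 members lie between -1.86 and -0.06, and the called genes of the other lists lie on both sides of 0.

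Genes that Polycomb is known to silence were counted as a further list. Of 6 genes whose maternal allele is silenced in embryos by H3K27 methylation inherited from the oocyte, 3 were tested, and Gab1 and Smoc1 were called higher in mutants, as were 14.7% of all genes. Gab1 had 0 to 20 counts in controls and 158 to 1324 in mutants (log2 fold change 6.56, SE 0.70, adjusted p = 0.000135, edgeR). Smoc1 had 0 counts in the 5 controls and 12, 12, 28, 40 and 1 in the 5 mutants. As a group mean this was at least 4.92-fold higher, against 3 counts per control oocyte. It had enough counts to be tested only through the mutants. Xist had 1 to 21 counts in controls and 0 to 5 in mutants and was not called (log2 fold change -1.70, adjusted p = 0.297, edgeR). Without D7 it was at -2.85 and still not called. Jade1, Sfmbt2 and Slc38a4 had at most 1 count in any oocyte and were not tested.

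Of 39 Hox genes, the classical Polycomb targets, 21 were at 0 in every oocyte and 5 were tested. Hoxa7 and Hoxa5 were called higher, where 14.7% of all genes were. Hoxa7 was at 2.21, 3.02, 3.68 and 5.38 CPM in the wt/wt oocytes, 26.9 CPM in C3 and 33.5 to 48.1 CPM in mutants (log2 fold change 2.23, SE 0.60, adjusted p = 0.0134, edgeR, and 3.47 without C3). C3 thus lay closer to the mutants than to the wt/wt oocytes for this gene. Hoxa5 passed the filter on low counts only through the mutants, so its call was favoured by that filter, as were those of Cbx7, E2f6, Mbd6 and Smoc1, while Bcor passed it only through the controls. Hoxa5 had 0 to 2 counts in controls and 2 to 20 in mutants (log2 fold change 3.19, adjusted p = 0.024), and without wt3 was not called (2.94, adjusted p = 0.0517). These lists are small, and no relation between them and the levels of the Polycomb subunits was tested.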

How the data were processed

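RNA-seq of 14 libraries from single oocytes was analysed from the deposited counts per gene, which the authors made without normalization by aligning filtered reads to mm10, keeping unique best hits and counting with HTSeq. The submitters' processing notes name TopHat2 2.0.6 and HTSeq 0.5.3p9. Libraries that share an oocyte name were summed, which gave 10 oocytes. The column of 1 of the 2 C3 libraries, with 3518290 of the 6928548 counts of C3, carries a name that differs from its title by the order of 2 characters and was assigned to it as the nearest match. The table held 0 columns of other samples. The members and gene lists were chosen with earlier results of these data known.

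The comparison of control with mutant oocytes used edgeR 4.0.16 under R 4.3.3 (TMM, glmQLFit and glmQLFTest). It covered 9198 genes, the top 60% of the 15432 with a count, with Benjamini-Hochberg adjustment over all of them. The common biological coefficient of variation was 0.609. The SE was the log2 fold change divided by the square root of the F statistic. CPM was computed over TMM library sizes and log2 CPM with a prior count of 2. Ratios within an oocyte used a pseudocount of 0.5 and an exact permutation test over 252 groupings. Gene coordinates and exon lengths came from GENCODE annotation of GRCm38, matched by name for 22787 genes. The fit was also run on simulated data with less spread between samples than these oocytes had. That run cannot show how the fit performs at the spread found here.

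The text names all 10 members, up to 4 called genes of smallest p from each other list, the H3K27 demethylases and imprinted genes, Kdm1a and the 3 genes most like Ezh2. Phc2, E2f6, Gdf9, Zp1, the other Pcgf genes, the further PRC2 genes and the uncalled markers were named after their values were seen. Alternatives were DESeq2 1.42.0, limma 3.58.1 (voom with sample weights), other scalings and filters, an adjusted p alone, other controls, libraries not summed, 1 library per oocyte, thinned counts and leaving out each oocyte. The authors' own tests were not used.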

Additional observations from a re-analysis of the deposited data

Results flagged for a closer look

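In 3 sets of values 1 oocyte stood apart from the rest of its group by a wide gap, judged by Dixon's ratio of the gap to the whole range, and in each it was the f/f oocyte C3, the highest control. The ratio was 0.785 for Eed (513 CPM, next highest 334 CPM), 0.839 for Jarid2 (321 CPM, next 142 CPM) and 0.803 for Cbx2 (497 CPM, next 207 CPM), against a critical value of 0.710 for 5 oocytes. In all 27 sets were examined (9 genes in the wt/wt, control and mutant oocytes), and chance alone gives about 1 in 20, or 1.35 sets. The control set joins the wt/wt oocytes with 1 oocyte of another strain, so strain and oocyte cannot be told apart here. No wt/wt or mutant set was flagged by this ratio. For Cbx2, which spread most among mutants, the mutant values passed no such gap.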

How the results depend on the processing

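The 2 called members became 6 with library totals, 4 with every library as its own sample, 1 against the wt/wt oocytes alone (Bmi1) and 0 with the f/f oocyte alone (edgeR, with 5 of 9 at an unadjusted p under 0.05). Leaving out each oocyte gave 1 to 3, with 1 (Bmi1) without C3 and 3 without D1, where 31.5% and 17.6% of all genes were called. The 9 called genes of the other Polycomb lists became 14 with limma voom, 14 with the wt/wt oocytes alone, 0 with the f/f oocyte alone (edgeR, with 7 of 36 at an unadjusted p under 0.05) and 6 to 14 when each oocyte was left out, 14 without C3. With a replicate block on every library, 1 member and 2 other Polycomb genes were called. Deviations of the wt/wt and mutant libraries sharing the numbers 3, 4 and 5 in the labels correlated at 0.075, 0.098 and -0.090, so these libraries were taken to share only a number (the number shared by an f/f and a mutant library was not checked), and over all genes the block gave 966 calls against 2885 without it.

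With 1 oocyte left out, the log2 fold change of Phf19 ran from -0.40 without D1 to 0.28 without wt3, and was also above 0 without D3 (0.03) and D4 (0.12). That of Cbx2 turned to 0.21 with limma voom, 0.088 with filterByExpr, 0.45 with the wt/wt oocytes alone and likewise without C3, 0.15 with the replicate block, 0.057 with thinned counts, 0.04 without D3, 0.22 without D4 and 0.19 without D7, its lowest with an oocyte left out being -0.28 (without D2). The causes were not tested. Bmi1 was at -2.77 to -1.48 in 24 settings and lost its call in 1, with the f/f oocyte alone, where 3 of 8811 genes were called. Eed was at -1.72 to -0.99 and lost its call in 4. Ezh1 was called in 4, Jarid2 in 2, and Ezh2 and Rnf2 in 1 each. The Ezh1 to Ezh2 difference was -0.86 to -0.12 and the Phf19 to Jarid2 difference 0.20 to 0.92 in 15 settings, and none passed the test. With length limited to 3 kb, the highest wt/wt level per length was 104 times the lowest, against 132 times. The Ring1 to Rnf2 ratio was not run because Ring1 had no count, so p-values of ratios were adjusted over 2 and not 3 as planned. Phf19 rests on 16 to 68 counts per oocyte, which limits its precision.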
